A study of Mus musculus with 16 samples.

Results

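The regulators of G-protein signalling (RGS proteins) described here are the products of 8 mouse genes, Rgs1, Rgs2, Rgs3, Rgs10, Rgs14, Rgs16, Rgs18 and Rgs19, picked by gene symbol from the 54532 rows of a gene count table. They were measured by bulk RNA-seq in TCF1+CD8+ T cells, obtained by repeated activation over 4 days of naive CD8+ T cells from the spleens of C57BL/6J mice. The cells were kept for 1 h with prostaglandin E2 (PGE2, 100 ng/mL) or without it, and then for 4 h in IL-2 at 85 U/mL, with or without beads, 1 for each cell, that carry antibodies to CD3 and CD28. Cells that received beads are called stimulated and cells that received IL-2 alone unstimulated, which gave 4 groups of 4 replicates: unstimulated untreated, unstimulated with PGE2, stimulated untreated and stimulated with PGE2. All groups carried the same genotype and all received IL-2. Neither the labels nor the methods say whether replicates came from separate mice or cultures, so the p-values measure the spread between these samples, which may be technical.

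RGS proteins bind the active, GTP-loaded alpha subunits of heterotrimeric G proteins and speed up GTP hydrolysis, which shortens the signal of the receptor upstream. Most act on the Gi and Gq classes, and in T cells their targets include the chemokine and sphingosine-1-phosphate receptors that guide migration. The PGE2 receptors EP2 and EP4 signal through Gs and raise cAMP. By sequence, Rgs1, Rgs2, Rgs3, Rgs16 and Rgs18 belong to the R4 subfamily of small RGS proteins, Rgs10 and Rgs14 to the R12 subfamily, and Rgs19 (also known as GAIP) to the RZ subfamily.

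The libraries held 22678254 to 42950763 counts. The labelled cell type showed in its markers, with Cd8a at 666 to 1209 CPM (counts scaled to a common library total) and Tcf7, which encodes TCF1, at 289 to 1539 CPM in the 16 libraries, while the myeloid gene S100a8 and the NK cell gene Ncr1 were at 0 counts throughout. Marker lists of B, myeloid, CD4+ T, platelet and erythroid cells summed to at most 21.0, 6.56, 10.2, 3.43 and 0.820 CPM per library. The NK list reached 178 CPM, almost all of it Eomes, which CD8+ T cells express too. The B cell sum moved with beads, from 12.0 to 21.0 CPM in unstimulated to 4.92 to 11.7 CPM in stimulated untreated libraries, and its part in the results was not tested. Nr4a1, an early gene of T cell receptor signalling, rose with beads from 78.7 to 1197 CPM without PGE2, and Crem, a gene induced by cAMP, rose with PGE2 from 73.7 to 231 CPM in unstimulated cells. In these bulk samples, a change in the share of cells that express a gene and a change in its RNA per cell cannot be told apart.

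Of the 8 members, 7 passed the filter on low counts in every fit and Rgs18 did not. Beads moved the family far more than PGE2. Without PGE2, beads raised Rgs16, Rgs1 and Rgs2 and lowered Rgs10 and Rgs14, so that 5 members were called, against 23.2% of the 14205 genes tested (11.5% higher and 11.7% lower). A gene was called where the edgeR quasi-likelihood test gave an adjusted p below 0.05 and the fold change was 2 or more. With PGE2 present, 4 members were called, Rgs16 and Rgs1 higher and Rgs10 and Rgs14 lower, against 22.1% of 14507 genes (12.7% higher and 9.44% lower). PGE2 in unstimulated cells called 1 member, Rgs2, which rose, against 3.38% of 14505 genes. PGE2 in stimulated cells called 0 members, against 1.75% of 13922 genes. There, 4 members had an unadjusted p below 0.05 in edgeR. No share of all genes was taken for this, so the count cannot be read as particular to the members. After adjustment only Rgs3 was below 0.05 in edgeR, as were 9.84% of all genes. DESeq2 also called 0 members, against 303 of 25904 genes. It had 1 member with an adjusted p below 0.05, for which no share of all genes was taken. These comparisons share groups of samples, so they are not independent of each other. The members called higher with beads all belong to the R4 subfamily, and those called lower both belong to the R12 subfamily. This is a description with no test. Of the other R4 members, Rgs18 was not tested and Rgs3 had a log2 difference of −0.13 without PGE2. With PGE2 present, Rgs3 fell by 0.44 on the log2 scale (adjusted p = 0.00568). Lower levels with beads were not limited to R12. Rgs11, an RGS gene of the R7 subfamily outside the 8 members, had a log2 difference of −0.90 without PGE2 (adjusted p = 0.00111).

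**Figure D1:**
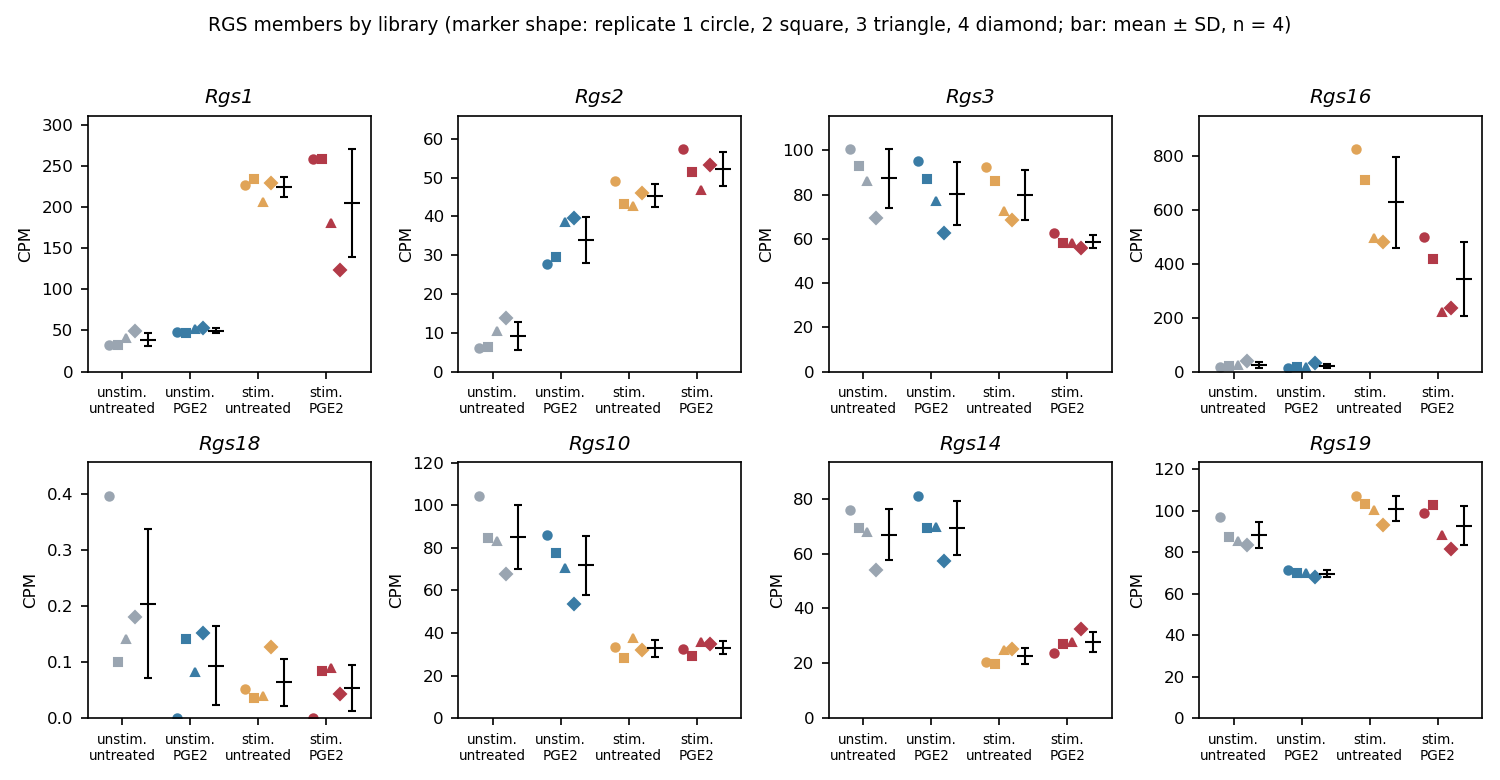
CPM of the 8 members in each of the 16 libraries, by group, on linear axes from 0, with the mean and SD (n = 4) as a bar beside each group. Rgs16, Rgs1 and Rgs2 lie higher in stimulated than in unstimulated untreated libraries, Rgs10 and Rgs14 lie lower, and Rgs2 is also higher in all 4 unstimulated libraries with PGE2 than in the 4 without.

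Rgs2 encodes an RGS protein with a preference for Gq, and was the only member that PGE2 changed past both thresholds. In unstimulated untreated cells its level was 6.13, 6.29, 10.5 and 13.8 CPM in replicates 1 to 4. After PGE2 it was 27.9, 29.7, 38.6 and 39.5 CPM, so every treated library lay above every untreated one. The means were 9.19 ± 3.70 (SD, n = 4) and 33.9 ± 6.00 CPM, a log2 fold change of 1.89 (SE 0.241, adjusted p = 0.000180) or 3.71-fold. Among all genes in this comparison, 28.9% had groups that did not overlap.

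In stimulated cells Rgs2 was already high. It stood at 49.1, 43.2, 42.7 and 46.1 CPM without PGE2 and at 57.3, 51.5, 46.8 and 53.2 CPM with it. These groups overlapped, and the log2 difference was 0.21 with a 95% interval of 0.04 to 0.38 (SE 0.0775, adjusted p = 0.112). An alternative fit had a block for the replicate number, in which each treated sample is set against the untreated sample of the same number. With it the difference was again 0.21 with an adjusted p of 0.00426, and Rgs2 was higher with PGE2 in 4 of 4 numbers, by 1.10 to 1.19 times. No label says that equal numbers pair samples, and in stimulated cells replicate 2 resembled another number more than its own. The share of all genes with an adjusted p below 0.05 under the block was not taken. Neither was the share that agreed in 4 of 4 numbers, so these values have no background here or below.

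The PGE2 effect on Rgs2 differed between the states. The interaction, the PGE2 effect in stimulated cells minus that in unstimulated cells on the log2 scale, was −1.67 (95% interval −2.23 to −1.10, SE 0.267, adjusted p = 0.00624) in a fit of all 16 samples. Rgs2 was the only member called in it, against 0.232% of 15096 genes. Tested with glmTreat against a fold change of 1.5, it was not called (adjusted p = 0.226), and neither was any other gene. The estimates for the other 6 members tested lay between −0.59 for Rgs16 and 0.26 for Rgs10, with adjusted p from 0.537 to 0.817. Their intervals were wide for Rgs16, from −1.52 to 0.35, and narrower for Rgs19, from −0.00086 to 0.44.

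Beads alone raised Rgs2 by 2.27 on the log2 scale (SE 0.214, adjusted p = 1.19e-06), a 4.83-fold rise. With PGE2 present, the rise was 0.63 (SE 0.131, adjusted p = 0.00143), without overlap but below a fold change of 2. In this comparison 60.2% of all genes did not overlap. Beads alone also gave more Rgs2 than PGE2 alone, by 0.39 on the log2 scale (adjusted p = 0.00877) and without overlap. There, 66.7% of all genes did not overlap and 71.5% had an adjusted p below 0.05. This difference lost its adjusted p with upper-quartile factors (0.27 on the log2 scale, adjusted p = 0.0698) and in a fit of all 16 samples (0.42, adjusted p = 0.0512). The order of Rgs2 levels was thus unstimulated untreated, unstimulated with PGE2, stimulated untreated and stimulated with PGE2. The adjusted p was below 0.05 for each pair of neighbours except the last, which passed only with the block, and only the first pair of neighbours reached a fold change of 2.

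**Figure D2:**
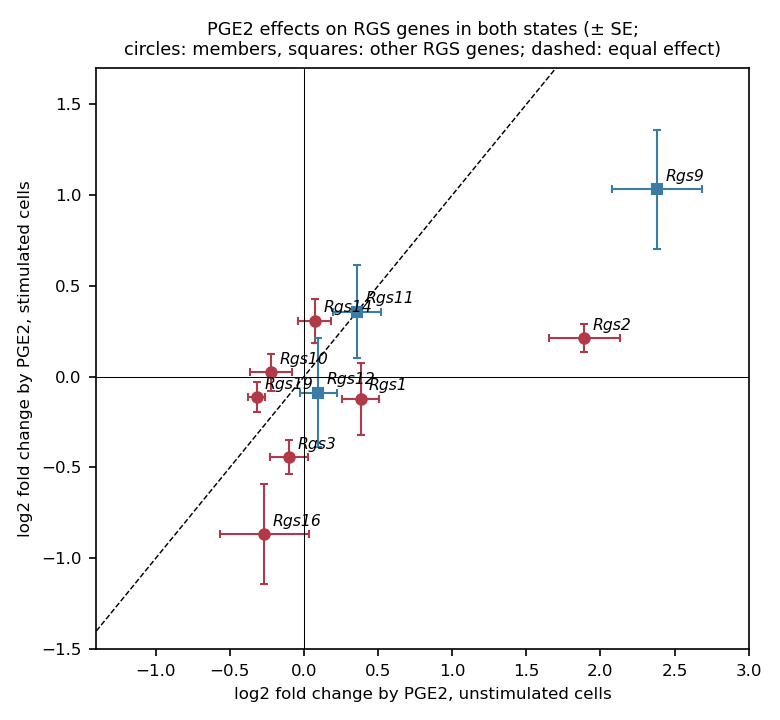
Log2 fold change by PGE2 in unstimulated cells (x) and in stimulated cells (y) for the 7 members tested (red circles) and 3 other RGS genes (blue squares), with SE bars and a dashed line of equal effect. Rgs2 lies far below the line, at 1.89 and 0.21, and Rgs9 at 2.38 and 1.03, while the other genes lie nearer to it.

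Rgs2 lies on the minus strand of chromosome 1 (GRCm38, chr1:143999338-144004161) and Rgs16 on the plus strand of the same chromosome (chr1:153740349-153745468). The 250 bases before their RefSeq starts on GRCm38.p6 are shown because these are the members that moved most with PGE2 in unstimulated cells and with beads. The windows are chr1:144004150-144004399 (minus strand) for Rgs2 and chr1:153740103-153740352 (plus strand) for Rgs16. Capitals mark TGACG on either strand, the core of the cAMP response element TGACGTCA.
Rgs2: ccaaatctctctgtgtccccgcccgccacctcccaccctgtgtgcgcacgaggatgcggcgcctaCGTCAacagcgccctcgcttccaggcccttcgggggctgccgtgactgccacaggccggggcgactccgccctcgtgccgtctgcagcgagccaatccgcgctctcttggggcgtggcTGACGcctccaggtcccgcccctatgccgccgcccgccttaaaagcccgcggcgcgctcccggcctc
Rgs16: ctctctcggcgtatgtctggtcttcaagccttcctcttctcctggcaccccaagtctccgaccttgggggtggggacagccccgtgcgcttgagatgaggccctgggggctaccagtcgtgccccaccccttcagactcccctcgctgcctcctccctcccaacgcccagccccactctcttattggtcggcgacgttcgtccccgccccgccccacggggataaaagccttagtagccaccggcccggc
The Rgs2 window held TGACG at 2 places, from 185 to 181 bases before the start on the reverse strand and from 67 to 63 bases before it on the forward strand. At least 1 match on either strand was present in 17.8% of 32841 RefSeq promoter windows of this length and at least 2 in 3.90%, where each full TGACGTCA counts as 2. The full TGACGTCA, present in 1.55% of windows, was in neither sequence. The Rgs16 window held no TGACG. Neither window held TGANTCA, an AP-1 motif found in 6.75% of windows, or GGAAA, the core of NFAT motifs found in 55.6%. G and C made up 72.4% of the bases in the Rgs2 window and 66.4% in the Rgs16 window, and the median over all windows was 52.4%. The shares of windows with a motif were not matched for G and C, so they are not a like background for these 2 windows. RefSeq windows were matched for 5 of the 8 members, and the table used here has no entry for Rgs1, Rgs14 and Rgs18.

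Rgs16, an activation-induced regulator of Gi and Gq that dampens chemokine receptor signalling, had the largest change among the members. It was at 15.5, 20.8, 25.5 and 40.8 CPM in unstimulated untreated cells. Beads brought it to 826, 711, 495 and 482 CPM, in each library more than 10 times the highest unstimulated untreated value. The means were 25.6 ± 10.9 and 629 ± 168 CPM, a 24.2-fold rise (log2 4.60, SE 0.294, adjusted p = 5.93e-08). Within a number, the level with beads was 53.4, 34.2, 19.4 and 11.8 times that without in replicates 1 to 4. With PGE2 present, Rgs16 rose 16.5-fold to 342 ± 137 CPM (log2 4.04, SE 0.347, adjusted p = 3.93e-06).

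In stimulated cells, Rgs16 was lower with PGE2 in each replicate number but the groups overlapped. The treated libraries held 499, 417, 220 and 235 CPM, and replicates 1 and 2 were higher than replicates 3 and 4 in both groups. Without regard to the numbers, the log2 difference was −0.87 (95% interval −1.48 to −0.25, SE 0.276, adjusted p = 0.0769), which missed the threshold. With the replicate block it was −0.92 (SE 0.0737, adjusted p = 9.53e-06), still short of a fold change of 2. Within a number, the level with PGE2 was 0.604, 0.586, 0.444 and 0.487 times that without. Without stimulated PGE2 replicate 1, Rgs16 was called, at −1.11 and an adjusted p of 0.0242.

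In unstimulated cells, PGE2 left Rgs16 at 14.7, 17.3, 18.9 and 33.0 CPM. The log2 difference from untreated cells was −0.27 (SE 0.300, adjusted p = 0.558), and −0.26 (adjusted p = 0.00234) with the block, with lower values in 4 of 4 numbers. Of the 2339 exon bases of Rgs16, 236 (10.1%) lie opposite the gene Gm28513, which held 0 to 1.25 CPM. Whether strand was used in counting is not stated, so reads of these genes cannot be told apart where they overlap.

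**Figure D3:**
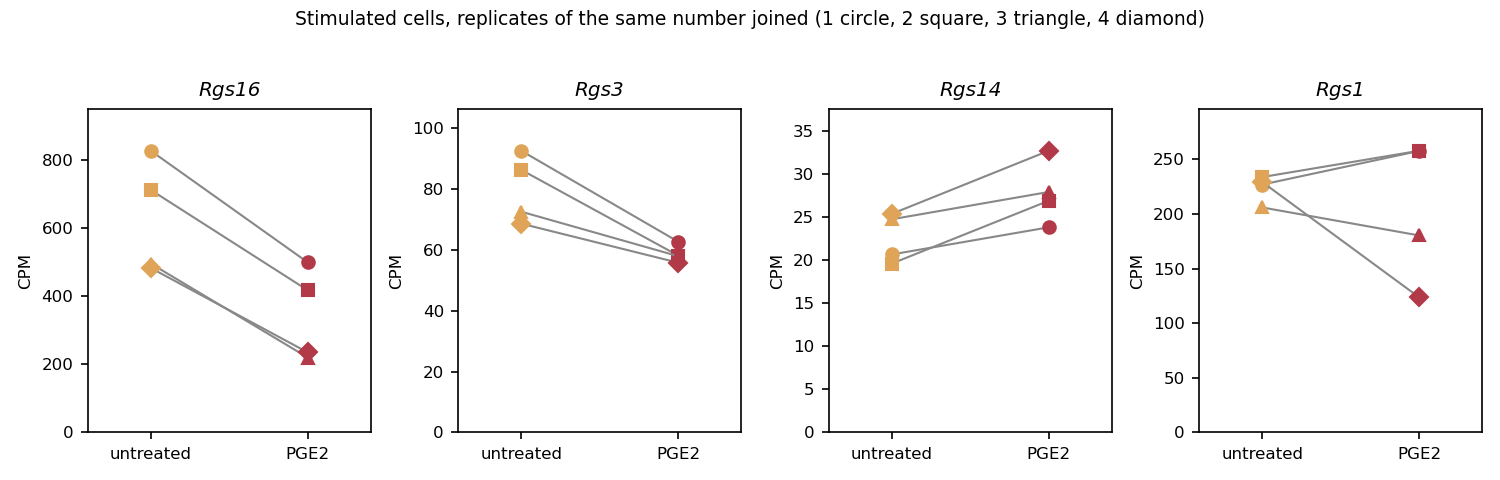
CPM of Rgs16, Rgs3, Rgs14 and Rgs1 in stimulated cells without and with PGE2, on linear axes from 0, with replicates of the same number joined by a line. Rgs16 and Rgs3 are lower with PGE2 along all 4 lines, Rgs14 is higher along all 4, and the lines of Rgs1 go up in replicates 1 and 2 and down in replicates 3 and 4.

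Rgs1, another regulator of chemokine receptor signals in activated lymphocytes, rose with beads in both conditions. It went from 32.4, 32.2, 41.4 and 49.2 CPM in unstimulated untreated cells to 227, 234, 206 and 229 CPM in stimulated untreated cells. The log2 fold change was 2.51 (SE 0.130, adjusted p = 1.74e-08), or 5.70-fold. With PGE2, stimulated cells held 258, 258, 180 and 124 CPM, which spread more widely around the mean (SD 65.4) than stimulated untreated cells did (SD 12.4). The rise with beads was then 2.06 on the log2 scale (SE 0.211, adjusted p = 1.15e-05).

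After PGE2 in unstimulated cells, Rgs1 was at 48.5, 46.8, 51.7 and 52.9 CPM. It rose by 0.38 on the log2 scale (SE 0.126, adjusted p = 0.0409), although untreated replicate 4 lay within the treated range. Of the 8 fits without 1 library, only 2 kept the adjusted p below 0.05 (range 0.0041 to 0.0995). The adjusted p was 5.82e-05 with the block, with a higher level in 4 of 4 numbers. Without the block, 28.4% of all genes had an adjusted p below 0.05 in this comparison. In stimulated cells the effect of PGE2 on Rgs1 was −0.12 (SE 0.199, adjusted p = 0.720), with an interval from −0.56 to 0.32. With the block it was −0.17 (adjusted p = 0.356), with 2 numbers higher and 2 lower.

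Rgs3, an R4 member that acts on Gi and Gq, did not change with beads in the absence of PGE2 past the threshold (log2 −0.13, SE 0.125, adjusted p = 0.362). Its level was 100, 93.2, 86.3 and 69.4 CPM in unstimulated untreated cells and 92.6, 86.3, 72.6 and 68.6 CPM in stimulated untreated cells. In stimulated cells with PGE2 it was 62.7, 58.1, 57.9 and 55.8 CPM, below all 4 stimulated untreated libraries. It fell there by 0.44 on the log2 scale (SE 0.0945, adjusted p = 0.0184). Among all genes in this comparison, 17.9% had groups that did not overlap and 9.84% had an adjusted p below 0.05. With beads in the presence of PGE2, Rgs3 fell by 0.44 (SE 0.113, adjusted p = 0.00568), with overlap, where 64.2% of all genes had an adjusted p below 0.05.

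The fall of Rgs3 with PGE2 in stimulated cells was 1.36-fold and so was not called. Leaving out stimulated untreated replicate 1 or 2 or stimulated PGE2 replicate 3 put its adjusted p above 0.05, at 0.0639, 0.0677 and 0.0610. With the block the adjusted p was 0.000160. In unstimulated cells with PGE2, Rgs3 was at 95.2, 87.1, 77.1 and 62.5 CPM, a log2 difference of −0.10 (SE 0.128, adjusted p = 0.618) without the block and −0.10 (adjusted p = 0.0257) with it. The mouse Rgs3 gene makes long and short transcripts, which gene counts do not separate.

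Rgs10, a short RGS protein for Gi, fell with beads. Unstimulated untreated cells held 104, 84.4, 83.1 and 67.9 CPM and stimulated untreated cells 33.4, 28.3, 37.8 and 31.9 CPM. The groups did not overlap, and the log2 fold change was −1.38 (SE 0.122, adjusted p = 6.86e-07), a 2.61-fold fall. In this comparison 61.6% of all genes had groups that did not overlap. With PGE2 present, Rgs10 fell from 71.9 ± 13.9 to 33.2 ± 2.98 CPM (log2 −1.10, adjusted p = 2.87e-05).

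PGE2 itself had little measured effect on Rgs10 in stimulated cells, with a log2 difference of 0.02 and an interval from −0.20 to 0.25. The block left this difference at 0.02 (adjusted p = 0.758). In unstimulated cells the difference was −0.22 (SE 0.142, adjusted p = 0.282). With the block it was −0.22 with an adjusted p of 0.000248, and Rgs10 was lower with PGE2 in 4 of 4 numbers, at 0.788 to 0.917 times the untreated level.

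Rgs14, which carries a GoLoco motif that holds inactive Gi alpha subunits in addition to its RGS domain, fell further. It was at 75.9, 69.3, 68.0 and 53.8 CPM in unstimulated untreated cells and at 20.7, 19.6, 24.7 and 25.4 CPM in stimulated untreated cells, again without overlap. The log2 fold change was −1.58 (SE 0.112, adjusted p = 1.25e-07), a 2.99-fold fall. With PGE2 present the fall was 2.47-fold (log2 −1.30, SE 0.113, adjusted p = 4.10e-06), to 23.8, 26.9, 27.9 and 32.7 CPM.

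PGE2 in stimulated cells gave a log2 difference of 0.31 for Rgs14 (SE 0.121, adjusted p = 0.135). With the block it was 0.30 (adjusted p = 0.00326), and Rgs14 was higher with PGE2 in 4 of 4 numbers, by 1.13 to 1.37 times. In unstimulated cells the difference was 0.07 (SE 0.110, adjusted p = 0.674), and 0.07 (adjusted p = 0.114) with the block.

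Rgs19, a regulator of Gi named for its interaction with G alpha, fell with PGE2 in unstimulated cells by a small and steady amount. The untreated libraries held 97.2, 87.4, 85.4 and 83.4 CPM and the treated libraries 71.5, 69.8, 69.8 and 67.9 CPM. All treated libraries lay below all untreated ones, and the log2 fold change was −0.32 (SE 0.0561, adjusted p = 0.00142). In this comparison 28.4% of all genes had an adjusted p below 0.05. The fall was 1.25-fold, and its adjusted p stayed below 0.05 in all 8 fits that left out 1 library.

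In stimulated cells, Rgs19 stood at 107, 103, 100 and 93.1 CPM without PGE2 and at 98.8, 103, 88.2 and 81.8 CPM with it. The log2 difference was −0.11 (SE 0.0826, adjusted p = 0.391), and −0.12 (adjusted p = 0.0572) with the block. Beads raised Rgs19 by 0.43 on the log2 scale (SE 0.0851, adjusted p = 0.00110) with PGE2 present, without overlap. With PGE2 present, all 7 members tested passed an adjusted p of 0.05, as did 64.2% of all genes. Without PGE2 the difference by beads was 0.18 (SE 0.0750, adjusted p = 0.0490) with overlap, where 66.5% of all genes had an adjusted p below 0.05. It lost its adjusted p in 6 of 8 fits that left out 1 library, with values up to 0.122, and stood at 0.239 with upper-quartile scaling.

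Rgs18, a regulator best known from platelets and megakaryocytes, was near the limit of detection. Its raw counts were 9, 3, 5 and 6 in unstimulated untreated cells and 0, 5, 3 and 6 in unstimulated cells with PGE2. Stimulated cells held 2, 1, 1 and 3 counts without PGE2 and 0, 2, 3 and 1 with it. No test was made at these counts. The groups overlapped for PGE2 in both states and for beads without and with PGE2, while the unstimulated untreated libraries, at 0.0998 CPM or more, all lay above the stimulated libraries with PGE2, at 0.0891 CPM or less. In that comparison 54.3% of all genes tested had groups that did not overlap. A count of 0, which occurred in 2 libraries, allows up to 3 counts, or 0.105 CPM in the unstimulated and 0.101 CPM in the stimulated library, with regard to counting error only. Of 6 platelet and megakaryocyte markers, Pf4, Ppbp and Gp1bb were at 0 in all libraries and Itga2b was at 1.31 to 3.43 CPM.

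**Figure D4:**
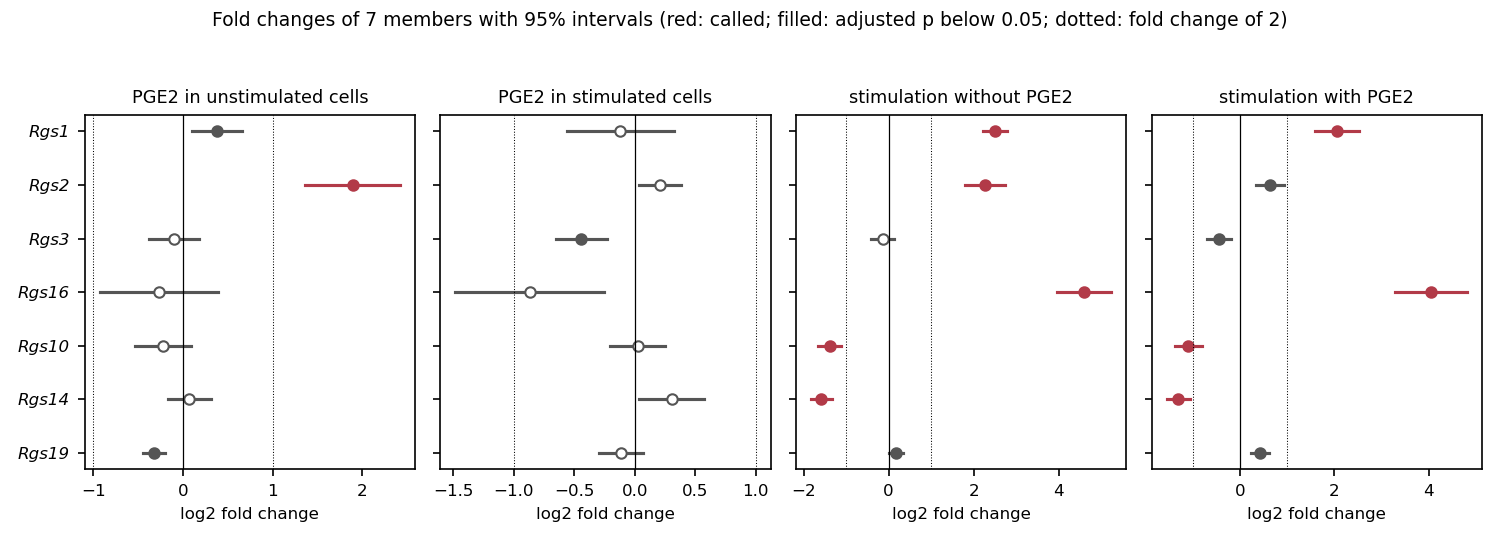
Log2 fold changes of the 7 members tested, with 95% intervals, in the 4 comparisons named above each panel, whose x axes differ in range. Red marks members called, filled points an adjusted p below 0.05 and dotted lines a fold change of 2. Only Rgs2 is red under PGE2 in unstimulated cells and no member is under PGE2 in stimulated cells, while 5 and 4 members are under stimulation.

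The median log2 fold change of the 7 members tested was −0.10 for PGE2 in unstimulated cells and −0.11 in stimulated cells, and 0.18 and 0.43 for beads without and with PGE2. Over all genes tested, the medians were −0.0010, −0.0061, −0.031 and 0.0022.

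Levels were compared between genes with the deposited FPKM, which divides by the length of all annotated exons of a gene. For Rgs1 this length of 6947 bases equals the whole span of the gene (chr1:144242296-144249242), so its FPKM and share may be too low. The shares depend on these lengths. In unstimulated untreated cells, Rgs10 had the largest share of the summed FPKM of all 21 RGS genes, at 32.5 ± 4.48% (SD, n = 4), followed by Rgs19 at 26.0 ± 1.02%, and Rgs16 held 7.29 ± 3.37%. In stimulated untreated cells Rgs16 held 66.1 ± 5.92%, Rgs19 11.5 ± 1.46%, Rgs1 8.19 ± 1.30% and Rgs10 4.92 ± 1.24%. By CPM, which does not divide by length, Rgs1 stood above Rgs19 there, at 224 against 101. The share of Rgs16 in stimulated cells with PGE2 was 51.3 ± 8.85%. The summed FPKM of the family was 145 ± 6.38 in unstimulated untreated, 143 ± 7.12 in unstimulated PGE2-treated, 383 ± 77.0 in stimulated untreated and 264 ± 65.6 in stimulated PGE2-treated cells.

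The share of Rgs2 was small in every group. It was 1.68 ± 0.727% in unstimulated untreated and 6.34 ± 1.28% in unstimulated PGE2-treated cells, and 3.17 ± 0.498% and 5.37 ± 1.07% in stimulated cells without and with PGE2. The 8 members together made up 86.9 ± 2.61% of the family in unstimulated untreated cells and 97.1 ± 1.23% in stimulated untreated cells. Most of the rest was Rgs11.

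**Figure D5:**
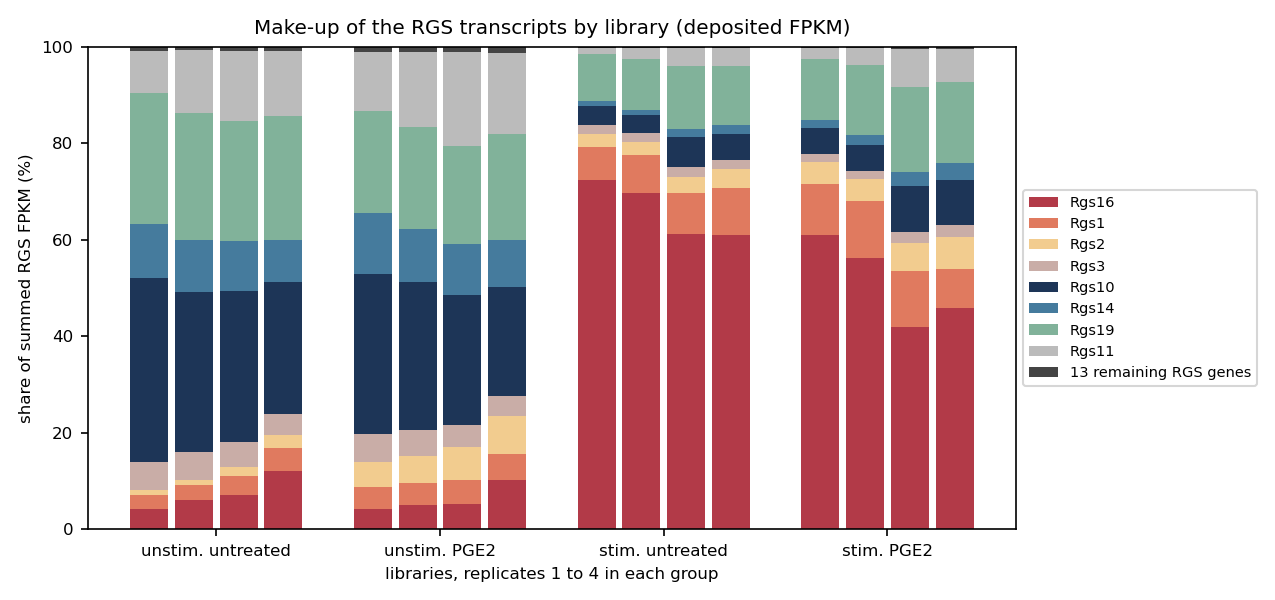
Share of RGS genes in the summed FPKM of the 21 RGS genes (%), stacked to 100 in each of the 16 libraries, with replicates 1 to 4 from left to right in each group. Rgs16, Rgs1, Rgs2, Rgs3, Rgs10, Rgs14, Rgs19 and Rgs11 are drawn singly and the remaining genes, Rgs18 among them, as a single block. Rgs10 has the largest share in unstimulated cells, at 22.5% to 38.2%, and Rgs16 fills 61.1% to 72.5% of those of stimulated untreated and 41.9% to 60.9% of those of stimulated PGE2-treated cells.

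Of the 13 other RGS genes, 3 passed the filter and the other 10 had at most 10 counts in any library, with 2 of them at 0 throughout. Rgs9, an R7 protein that works with the atypical beta subunit Gnb5, rose with PGE2 in unstimulated cells from 0.711 ± 0.352 to 3.78 ± 0.705 CPM (5.21-fold, adjusted p = 0.000184). In stimulated cells it was at 1.08 ± 0.460 and 2.15 ± 0.565 CPM (log2 1.03, SE 0.326, adjusted p = 0.0748). Its interaction was −1.33 (adjusted p = 0.283). Gnb5 itself went from 1.80 to 3.49 CPM with PGE2 in unstimulated cells (log2 0.97, adjusted p = 0.00702) and from 1.38 to 1.39 CPM in stimulated cells.

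Rgs12, the large R12 relative of Rgs10 and Rgs14, also fell with beads in the presence of PGE2, from 7.93 to 3.94 CPM (0.499 times, adjusted p = 0.00320). Without PGE2 it fell from 7.52 to 4.21 CPM (log2 −0.86, adjusted p = 0.00129). Rgs11, like Rgs9 of the R7 subfamily, was at 79.2 ± 14.9 CPM in unstimulated and 43.1 ± 12.4 CPM in stimulated untreated cells (adjusted p = 0.00111). Its log2 difference with PGE2 was 0.36 in unstimulated (adjusted p = 0.123) and 0.36 in stimulated cells (adjusted p = 0.381). It was named after its values were seen, for its level. It shares 138 exon bases (3.28%) with the opposite-strand gene Arhgdig.

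Of the members, Rgs1, Rgs2, Rgs16 and Rgs18 lie on chromosome 1, in small neighbourhoods of RGS genes. Rgs2, Rgs13, Rgs1, Rgs21 and Rgs18 were the only 5 protein-coding genes of the annotation deposited with the counts between chr1:143999338 and chr1:144775435, a span of 776 kb. Rgs2 and Rgs1 rose with beads, Rgs18 held at most 9 counts, Rgs13 at most 2 and Rgs21 0 in any library. Rgs16 and Rgs8 lie next to each other within 92.4 kb, and Rgs8 held at most 10 counts against up to 31225 for Rgs16. Rgs3 (chr4:62559847-62704001), Rgs10 (chr7:128373621-128418758), Rgs14 (chr13:55369732-55384687) and Rgs19 (chr2:181688419-181693977) lie apart from these.

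Other components of the pathway were counted from fixed lists. Among 13 Gi-coupled receptors of T cells, whose signals RGS proteins shorten, 12 were tested without PGE2, of which 2 were called higher and 7 lower with beads, against 11.5% and 11.7% of all genes. S1pr1, the sphingosine-1-phosphate receptor needed to leave lymphoid organs, went from 250 to 29.2 CPM (log2 −3.10, adjusted p = 4.75e-08) and Ccr7, the receptor for lymph node entry, from 1082 to 467 CPM (log2 −1.23, adjusted p = 2.12e-06). The sphingosine-1-phosphate receptor S1pr4 (log2 −2.47, adjusted p = 2.23e-08) and the chemokine receptors Ccr2 (log2 −1.56, adjusted p = 1.66e-05) and Cxcr4 (log2 −1.47, adjusted p = 1.68e-05) also fell. Ccr8 went from 1.18 to 8.74 CPM (log2 2.85, adjusted p = 1.88e-07). In stimulated cells, PGE2 raised 2 of 11 receptors past both thresholds, against 1.75% of all genes called in either direction, Ccr7 (log2 1.41, adjusted p = 0.00153) and S1pr1 (log2 1.09, adjusted p = 0.000360).

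In the other lists the share called with beads in the absence of PGE2 was below the 23.2% of all genes. Of 15 G alpha subunits, 9 were tested for beads without PGE2, and Gna15, a Gq-class subunit of blood cells, was the only one called, falling from 22.1 to 4.50 CPM (log2 −2.33, adjusted p = 2.97e-07). Among 17 beta and gamma subunits, 12 were tested for beads without PGE2, and Gng12 was the only one called, rising from 7.51 to 19.2 CPM (log2 1.34, adjusted p = 1.46e-06). Gng4 was the only one of 12 called with PGE2 in unstimulated cells and of 11 in stimulated cells, rising from 1.22 to 7.87 CPM in unstimulated (log2 2.66, adjusted p = 3.50e-05) and from 1.66 to 7.16 CPM in stimulated cells (log2 2.15, adjusted p = 0.00306). Of 16 further regulators of G proteins and receptors, such as GoLoco proteins, receptor kinases and arrestins, 14 were tested. With beads in the absence of PGE2, 12 of them were lower at an adjusted p below 0.05, against 34.8% of all genes, and 2 were called, Gpsm3 (log2 −1.22) and Arhgef11 (log2 −1.49).

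Genes with the pattern most like each member were sought among 12252 genes by the Pearson correlation of log2 CPM over the 16 samples, which share the 4 conditions and so rise and fall together with them. The closest to Rgs16 were Plek (r = 0.998), Sema7a (0.997) and Spry1 (0.997), and the closest to Rgs1 were Csrnp1 (0.994), Lilr4b (0.992) and Tgfb1 (0.990). For Rgs2, Cnih2 (0.990) stood ahead of Dnajb2 and Slc12a4 (both 0.962). Cnih2 showed the same order of group means as Rgs2, at 3.01, 6.73, 8.34 and 8.62 CPM. Rgs14 was closest to Mical1 and Cdc25b (both 0.996) and Adcy7 (0.994), and Rgs10 to Twf2 (0.988), B4galt7 (0.986) and Tbc1d10c (0.984). Rgs19 was closest to Itgb1 (0.973), Hps3 (0.968) and Abcc4 (0.967). Rgs3 had the least close neighbours, Ptk2b (0.935), Camk1d (0.918) and Pglyrp2 (0.916).

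Among the members, Rgs14 and Rgs16 ran most opposite, with r = −0.995 over the 16 samples and −0.906 after the group means were removed. Rgs1 and Rgs16 had r = 0.972, and 0.743 within groups, and Rgs10 and Rgs14 had 0.962 and 0.796. Within groups, libraries with more Rgs16 thus tended to hold less Rgs14. These are descriptions over 16 libraries, in which each pair of genes shares the library, its scaling and its replicate number.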

How the data were processed

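Poly(A) RNA of 16 samples was sequenced from both ends. Per the submitters' processing notes, HISAT2 2.0.5, featureCounts 1.5.0-p3 and DESeq2 1.20.0 and the build GRCm38 were used. The authors deposited whole-number counts for each gene, not normalized. The FPKM values deposited by the authors equal the count over gene length and library total, up to a factor of 0.878 to 1.11 per sample. Strand use and annotation release are not given in the sources used here. The starts and ends of 21 of 21 RGS genes equal those of GENCODE M21.

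Counts were tested with edgeR 4.0.16 in R 4.3.3 (filterByExpr with a minimum count of 10, TMM, quasi-likelihood test, two-sided, Benjamini-Hochberg adjustment over all genes tested). Pairwise fits held the 8 samples compared and the interaction fit all 16, without covariates. Calls needed an adjusted p under 0.05 with a 2-fold change or, for the interaction, a log2 difference of 1. CPM used TMM factors of all 16 samples and a prior count of 2 on the log2 scale.

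The replicate number was fitted as a block in an alternative. The deviations of same-numbered samples from their group means correlated above 0.1 for all 4 numbers between the groups compared for PGE2 in unstimulated cells (r 0.137 to 0.444), for PGE2 in stimulated cells (0.190 to 0.423) and for beads without PGE2 (0.112 to 0.359), so the numbers were taken to pair those samples. They did not for beads with PGE2 (lowest r 0.0439). Samples of different numbers also passed 0.1 in places. Between the stimulated groups, their highest r was 0.180 to 0.250. There, replicate 2 matched another number better (0.212) than its own (0.190). The rule thus separates pairs poorly in stimulated cells, and the p-values with the block depend on it. The pairing comes only from these correlations, since no label says what a number shares.

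Other alternatives were DESeq2 1.42.0, RLE and upper-quartile factors, other filters, limma 3.58.1 (trend) on log2 FPKM with a pseudocount of 1 or 0.1, glmTreat against a fold change of 1.5, a joint fit of all 16 samples and omission of each replicate. All 8 members were named. Genes of the pathway lists were named when called in at least 1 of the 4 main comparisons at a mean of at least 1 CPM, at most 6 per list. For each member the 3 most correlated genes were named. The members, lists and tests were chosen with earlier results of these data known. Replicates varied more than counting noise (chi-square per degree of freedom 8.46 to 56.8), so the spread between replicates limits precision more than depth, except for Rgs18.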

Additional observations from a re-analysis of the deposited data

Results flagged for a closer look

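The PGE2 effect on Rgs2 differed between the states by −1.67 on the log2 scale (stimulated minus unstimulated), by the interaction term of the edgeR fit of all 16 samples. It was called in each of the 16 fits that left out 1 library and was not called with glmTreat against a fold change of 1.5 (adjusted p = 0.226). No library of the 8 members or of Rgs9, Rgs11 and Rgs12 stood apart from the other 3 of its group by Dixon's criterion in any of 44 groups of 4, of which chance flags about 1 in 20.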

How the results depend on the processing

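The tally over single members leaves out glmTreat and the calls without a fold change threshold, which are given below. In it, 930 recomputed fold changes kept their side of the call, and 0 that were called reversed. The call was gained by 1, Rgs16 under PGE2 in stimulated cells, at −1.11 without stimulated PGE2 replicate 1. Differences that were not called could change sign and still count as kept. With single libraries left out, Rgs1 under PGE2 in stimulated cells ranged from −0.25 to 0.058. Rgs16 under PGE2 in unstimulated cells ranged from −0.58 to 0.047. Without the fold change threshold, 3 members passed for PGE2 in unstimulated cells (28.4% of all genes) and 1 for PGE2 in stimulated cells (9.84%). For beads, 6 members passed without PGE2 (66.5% of all genes) and 7 with it (64.2%). The count for PGE2 in stimulated cells ranged from 0 to 1 when single replicates were left out. Tested with glmTreat against a fold change of 1.5, the interaction had 0 members called, as it had 0 of all genes. Rgs2 there had an adjusted p of 0.226. By edgeR's glmTreat, 235 genes (Rgs2 the only member) had an unadjusted p below 0.05, and DESeq2 called 53 genes with Rgs2 among them. With the replicate block, 560 genes were called for PGE2 in unstimulated, 349 for PGE2 in stimulated cells and 60 for the interaction, against 490, 243 and 35, and the block changed no call of a member. Upper-quartile factors moved the median of all genes to −0.13 on the log2 scale for beads without and with PGE2, and the called members kept their directions. Limits are the 4 replicates per group of unstated origin and, for Rgs18, depth.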
